A study of Homo sapiens with 4 samples.

Results

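The RAB small GTPases were followed here in HMLE cells, an immortalised line of human mammary epithelial cells. The family was taken as every row of the deposited table whose symbol is RAB, a number and at most 1 further letter. This gave 62 of 60302 genes, each with a single row. The study compared 2 control samples, whose cells stably carried a non-specific short hairpin RNA, with 2 hnRNPF KD samples, whose cells carried a hairpin against HNRNPF. The cells of all 4 samples came from lentiviral infection, and PolyA-selected RNA was sequenced in stranded paired-end libraries. Whether replicate samples stem from independent infections or hairpins is not given in the labels. Every p-value below therefore measures only the spread between these samples, which may be technical. HNRNPF, which encodes the splicing factor hnRNP F, stood at 154 and 153 FPKM in controls and at 18.7 and 16.6 FPKM in the hnRNPF KD samples. FPKM are fragment numbers scaled to gene length and library size, so levels can be compared between genes. The family was chosen because RAB31 was higher in the hnRNPF KD samples. For that reason RAB31 is described without a test.

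RAB proteins are membrane switches that recruit tethers, motors and coat factors when bound to GTP. Exchange factors load them with GTP, GTPase-activating proteins turn them off, and lipid anchors added by a geranylgeranyl transferase hold them on membranes. RAB31 is the closest relative of RAB22A and belongs, with RAB21 and RAB5A to RAB5C, to the branch that works on early endosomes. RAB31 is known for traffic between the trans-Golgi network and endosomes and for the sorting of the EGF receptor. RAB5 proteins drive the fusion of early endosomes, RAB22A acts in recycling from them, and RAB21 in the endocytosis of integrins. In mammary epithelium these routes set how receptors and adhesion proteins return to the surface.

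The stretch that codes for the phosphate-binding loop, the part of every RAB that grips the GTP phosphates, shows how alike and how distinct these genes are. It is given for the 6 genes compared most closely, from the GENCODE 29 coding transcript with the longest coding sequence, with capitals at bases that differ from RAB31.
RAB31: ggggacactggggttgggaaatca
RAB22A: ggggaTacAggTgtAggTaaatcG
RAB21: ggggaAGGCTgCgtGgggaaGAcG
RAB5A: ggAgaGTcCgCTgttggCaaatca
RAB5B: ggAgaATctgCAgtGggAaaGtca
RAB5C: ggggaGTctgCggtAggCaaatcC
Each stretch has 24 bases, and between 6 (RAB22A and RAB5C) and 10 (RAB21) of them differed from RAB31. Over whole coding sequences RAB31 was 69.4% identical to RAB22A, counted over all alignment columns with gaps. It was 55.7% identical to RAB5A, 53.5% to RAB5B, 50.1% to RAB21 and 48.9% to RAB5C. Members outside the branch reached 55.2% (RAB1A and RAB10), so by this measure only RAB22A stood out. Of the 4025 runs of 31 bases in the RAB31 transcript, 0.273% also occur in a transcript of another gene. RAB31 values therefore had little sequence that fragments of other annotated genes could match. Of the 47 tested members, 16 shared no such run with any other gene. More than 50% was shared by 5 of them, RAB13, RAB5C, RAB4B, RAB24 and RAB43. Their values may depend on how fragments were divided between genes of GENCODE 29 that share sequence. Whether they do was not tested.

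RAB31 was the member that stood apart. It lies on chromosome 18 from 9708162 to 9862548 on the plus strand (GRCh37, ENSG00000168461.12). Its level was 4.43 FPKM in control 1 and 6.68 FPKM in control 2, against 19.6 and 19.0 FPKM in the hnRNPF KD samples. Both hnRNPF KD samples lay well above both controls, and the lower of them was 2.84-fold above the higher control. The ratio of mean levels was 3.47, and the difference was 1.65 on the log2(FPKM + 1) scale, which is used for every difference below. The controls themselves were 1.51-fold apart. RAB31 ranked 38 and 30 among the 62 members in the controls, and 18 and 20 in the hnRNPF KD samples. It thus ranked higher in both hnRNPF KD samples than in either control. Its share of the summed family level went from 0.425% and 0.653% to 1.93% and 1.87%. Among the 13110 genes that passed a filter on mean level (1 FPKM or more), its difference was the 8th largest upward. These values are those that chose the family and support nothing further. In bulk RNA such as this, more cells with a transcript and more transcript per cell cannot be told apart.

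RAB22A and RAB21 did not share the values of RAB31. RAB22A was at 7.60 and 8.31 FPKM in controls and at 8.71 and 8.63 FPKM in the hnRNPF KD samples. Those groups did not overlap, but the difference was 0.11 with a 95% interval of -0.22 to 0.44. RAB31 was thus at 0.582 and 0.804 of the RAB22A level in the controls and at 2.25 and 2.2 times it in the hnRNPF KD samples. RAB21 was at 4.46 and 5.02 FPKM and then at 4.86 and 4.99 FPKM, with overlapping groups and a difference of 0.05 (-0.33 to 0.42).

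RAB5C was the most abundant of the branch, at 47.3 and 56.2 FPKM in controls and 44.1 and 52.6 FPKM in the hnRNPF KD samples, a difference of -0.10 (-0.48 to 0.28). RAB5A was at 26.6 and 24.2 FPKM and then at 26.6 and 26.1 FPKM, a difference of 0.05 (-0.22 to 0.32). RAB5B was at 6.34 and 4.85 FPKM and then at 6.13 and 5.29 FPKM, a difference of 0.03 (-0.45 to 0.51). The groups overlapped for all 3 RAB5 genes. These intervals do not show that the genes were unaffected. Adjusted p-values for RAB22A, RAB21 and the RAB5 genes lay between 0.994 and 0.999 in limma. A row on the same strand that overlaps RAB5B, AC034102.1, was at 37.8 FPKM in control 1 and at 0.0477, 0.0468 and 0.0456 FPKM in control 2 and the hnRNPF KD samples, and its part in the RAB5B values was not tested.

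**Figure D1:**
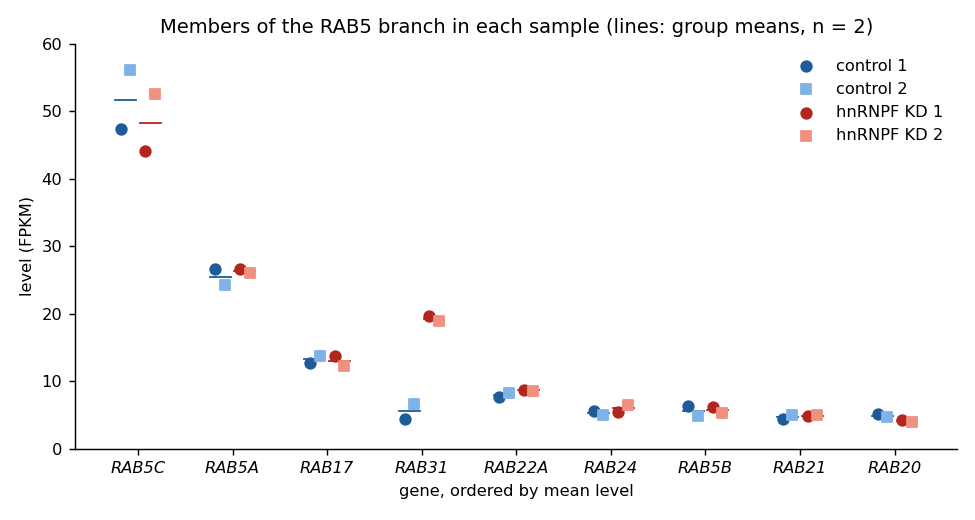
Levels in FPKM (vertical axis) of the 9 genes of the RAB5 branch, ordered by mean level, with 1 point per sample and short lines at the group means of 2 samples. RAB31 is the gene whose hnRNPF KD points (19.6 and 19.0) stand clear of its control points (4.43 and 6.68).

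The remaining members of the branch were RAB17, RAB20 and RAB24. RAB17, which works in transcytosis across polarised epithelium, was at 12.8 and 13.8 FPKM in controls and 13.8 and 12.2 FPKM in the hnRNPF KD samples. RAB24, linked to autophagy, was at 5.61 and 5.04 FPKM and then at 5.52 and 6.47 FPKM. Both had overlapping groups. RAB20, of maturing phagosomes and endosomes, was lower in both hnRNPF KD samples (4.21 and 4.03 FPKM) than in either control (5.11 and 4.69 FPKM), with a difference of -0.20 (-0.57 to 0.17). Summed over the 9 genes, the branch was at 120 and 129 FPKM in controls and at 134 and 139 FPKM in the hnRNPF KD samples. Without RAB31 the sums were 116 and 122 FPKM against 114 and 120 FPKM, so the groups then overlapped. Gene by gene, groups did not overlap for 3 of the 9, RAB31 included (33.3%), against 34.6% of all tested genes.

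Over the family, 47 of the 62 members passed the filter of a mean of 1 FPKM. RAB30 was next to that limit on the upper side (mean 1.20 FPKM) and RAB19 on the lower side (mean 0.810 FPKM). RAB30 was the 1 member that passed with a group mean below 1 FPKM, so it had to be higher in the hnRNPF KD samples to be tested. None of the 46 tested members other than RAB31 passed an adjusted p of 0.05 in limma, where 0.00763% of all tested genes did. RAB31 did not pass either, but its value chose the family, so this is no test of it. Among the 46 tested members other than RAB31, the lowest adjusted p was 0.765, for RAB34. At an unadjusted p under 0.05 there were 7 of the 46 (15.2%), 3 higher and 4 lower, against 6.08% of all tested genes. Groups did not overlap for 11 members that were higher and 12 that were lower, RAB31 included. This is 48.9% of those tested, or 47.8% without RAB31, against 34.6% of all tested genes (17.5% higher and 17.1% lower). The median difference was 0.00 for the members and 0.00 for all tested genes. Within 0.2 of 0 lay 29 of the 47 tested members, beside 9158 of all 13110 tested genes. The family was chosen from this same contrast, so nothing is read from these shares.

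**Figure D2:**
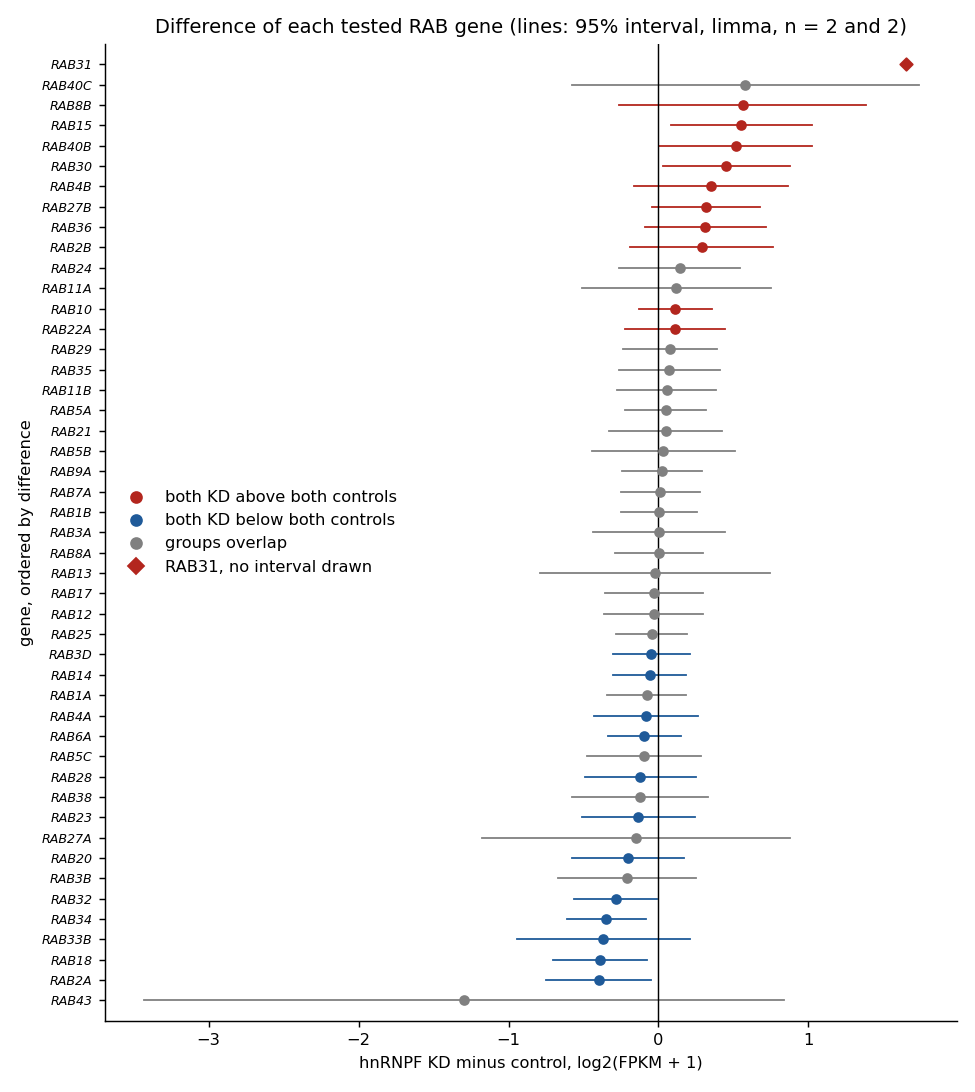
Difference between hnRNPF KD and control on the log2(FPKM + 1) scale for the 47 tested members (horizontal axis), with limma 95% intervals for all but RAB31. RAB31 lies at 1.65, and the next member without overlap between the groups, RAB8B, at 0.56.

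All 13 RABs of recycling endosomes and of delivery to the plasma membrane were tested. Groups did not overlap for 4 higher members (RAB8B, RAB15, RAB4B and RAB10) and 2 lower ones (RAB4A and RAB14), 46.2% of the group against 34.6% of all tested genes. RAB25, a RAB11 relative of epithelial cells that recycles apical proteins and integrins, was the most abundant at 62.5 and 64.6 FPKM in controls and 59.7 and 63.6 FPKM in the hnRNPF KD samples. Its groups overlapped, with a difference of -0.04 (-0.28 to 0.19). RAB15, which acts between early and recycling endosomes, was at 1.41 and 1.97 FPKM in controls and at 2.81 and 3.04 FPKM in the hnRNPF KD samples. Both hnRNPF KD values were above both controls, at a difference of 0.55 (SE 0.177) and an adjusted p of 0.789 in limma.

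RAB8B, which directs vesicles to the cell surface and the cilium, was at 3.19 and 6.55 FPKM in controls and at 7.41 and 7.20 FPKM in the hnRNPF KD samples. The controls were 2.05-fold apart, with control 1 low. Its difference was 0.56 (SE 0.310; limma, adjusted p = 0.896) and 0.14 without control 1. RAB10, an exocytic RAB best known from glucose transporter delivery, was at 46.9 and 49.2 FPKM and then at 50.5 and 53.6 FPKM, a difference of 0.11. RAB13, of tight junction assembly, was at 69.1 and 41.1 FPKM and then at 60.3 and 45.7 FPKM. It was high in the samples numbered 1 and low in those numbered 2, and 57.0% of its runs of 31 bases occur in another annotated gene.

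RABs of the endoplasmic reticulum and Golgi held 5 of the 12 lower members without overlap. Of 18 such members, 11 were tested, and the groups did not overlap for 8 of these (72.7%), 5 lower and 3 higher, against 34.6% of all tested genes. RAB30, which passed the filter through the hnRNPF KD samples, is among the 3. RAB34, found at the Golgi and in the making of cilia, was at 36.4 and 40.0 FPKM in controls and at 30.3 and 29.3 FPKM in the hnRNPF KD samples. That is 22.0% lower, a difference of -0.35 (SE 0.0992; limma, adjusted p = 0.765). RAB18, which joins the reticulum to lipid droplets, was at 17.6 and 15.8 FPKM and then at 12.9 and 12.1 FPKM. It was 25.1% lower, a difference of -0.39 (SE 0.118; limma, adjusted p = 0.773).

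RAB2A, which acts between the reticulum and the Golgi, was at 32.8 and 32.3 FPKM in controls and at 22.0 and 27.1 FPKM in the hnRNPF KD samples. The controls were close together and hnRNPF KD 1 was the lowest. The difference was -0.40 (limma, adjusted p = 0.800), and -0.25 without hnRNPF KD 1. Its paralog RAB2B had the opposite order, at 7.03 and 5.59 FPKM in controls and 8.75 and 7.10 FPKM in the hnRNPF KD samples, with a difference of 0.29 (-0.19 to 0.76). RAB33B, of the Golgi and of autophagosome formation, was at 3.82 and 2.49 FPKM and then at 2.36 and 2.01 FPKM. Control 1 was the high sample, and the difference of -0.37 (limma, adjusted p = 0.911) became -0.14 without it.

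RAB30, a Golgi RAB, was at 0.887 and 0.824 FPKM in controls and at 1.69 and 1.40 FPKM in the hnRNPF KD samples, a difference of 0.45 (limma, adjusted p = 0.806). RAB36 was at 1.34 and 1.51 FPKM and then at 1.96 and 2.06 FPKM. RAB1B, of transport from the reticulum to the Golgi and the most abundant of the group, was at 64.0 and 69.7 FPKM and then at 65.1 and 69.0 FPKM (0.00, interval -0.25 to 0.26). RAB43 was set by 1 library: it was at 12.6 FPKM in control 1 but at 1.71, 1.06 and 1.95 FPKM in control 2 and the hnRNPF KD samples. Of its runs of 31 bases 88.5% also occur in the readthrough gene ISY1-RAB43, which was listed at 0 and 0.706 FPKM in controls and at 1.99 and 0 FPKM in the hnRNPF KD samples. The summed levels of both were 12.6 and 2.41 FPKM against 3.06 and 1.95 FPKM, so control 1 stayed high. The difference of RAB43 was -1.30 over all samples and -0.14 without control 1.

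RABs of late endosomes and lysosomes included the most abundant member of all. RAB7A, which brings late endosomes to lysosomes, was at 141 and 153 FPKM in controls and at 142 and 154 FPKM in the hnRNPF KD samples. In both groups replicate 2 was the higher, and the difference was 0.01 (-0.25 to 0.28). RAB7A, RAB1B and RAB25 together held between 25.6% and 28.2% of the summed family level in each sample. RAB32, a RAB of melanosomes and mitochondria, was at 37.0 and 32.9 FPKM in controls and at 28.7 and 28.3 FPKM in the hnRNPF KD samples. It was 18.5% lower, a difference of -0.28 (SE 0.105; limma, adjusted p = 0.817), and its close relative RAB38 had overlapping groups and a difference of -0.12 (-0.57 to 0.33). RAB9A and RAB29 overlapped too. Of the 5 tested members of this group, 1 (20.0%) did not overlap, against 34.6% of all tested genes.

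Among RABs of regulated secretion, RAB27B, which docks vesicles for exosome release, was at 4.25 and 4.46 FPKM in controls and at 5.86 and 5.50 FPKM in the hnRNPF KD samples. The difference was 0.32 (-0.04 to 0.68), with no overlap between the groups. Its paralog RAB27A was at 10.7 and 7.24 FPKM and then at 11.5 and 5.32 FPKM, so the samples numbered 1 were high in both groups. RAB3D, of secretory granules, was at 20.5 and 20.5 FPKM in controls and at 19.5 and 20.1 FPKM in the hnRNPF KD samples, a difference of -0.05. Of the 5 tested members of this group, 2 (40.0%) did not overlap, against 34.6% of all tested genes. Outside these groups, RAB40B, a RAB with a domain that recruits a ubiquitin ligase, was at 2.35 and 3.42 FPKM in controls and at 4.43 and 4.60 FPKM in the hnRNPF KD samples. Both hnRNPF KD values were the higher ones. Its difference was 0.52 (SE 0.192; limma, adjusted p = 0.820), and 0.32 without control 1. RAB40C was at 2.72 FPKM in control 1 and at 7.86, 7.39 and 7.79 FPKM in the other 3 samples, and its difference of 0.58 became -0.04 without control 1. Of the 4 tested members outside these groups, 3 (75.0%) did not overlap.

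The 15 members below the filter were not tested. RAB3C, RAB39A and RAB41 were listed at 0 in all 4 samples, and the other 12 had means of up to 0.810 FPKM. RAB19 was at 0.979 and 0.973 FPKM in controls and at 0.545 and 0.745 FPKM in the hnRNPF KD samples. RAB6B, the paralog of RAB6A that is known from neurons, was at 0.128 and 0.128 FPKM and then at 0.313 and 0.292 FPKM. RAB6A itself was at 52.3 and 53.6 FPKM and then at 51.3 and 47.8 FPKM. RAB1C had no coding transcript in GENCODE 29.

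**Figure D3:**
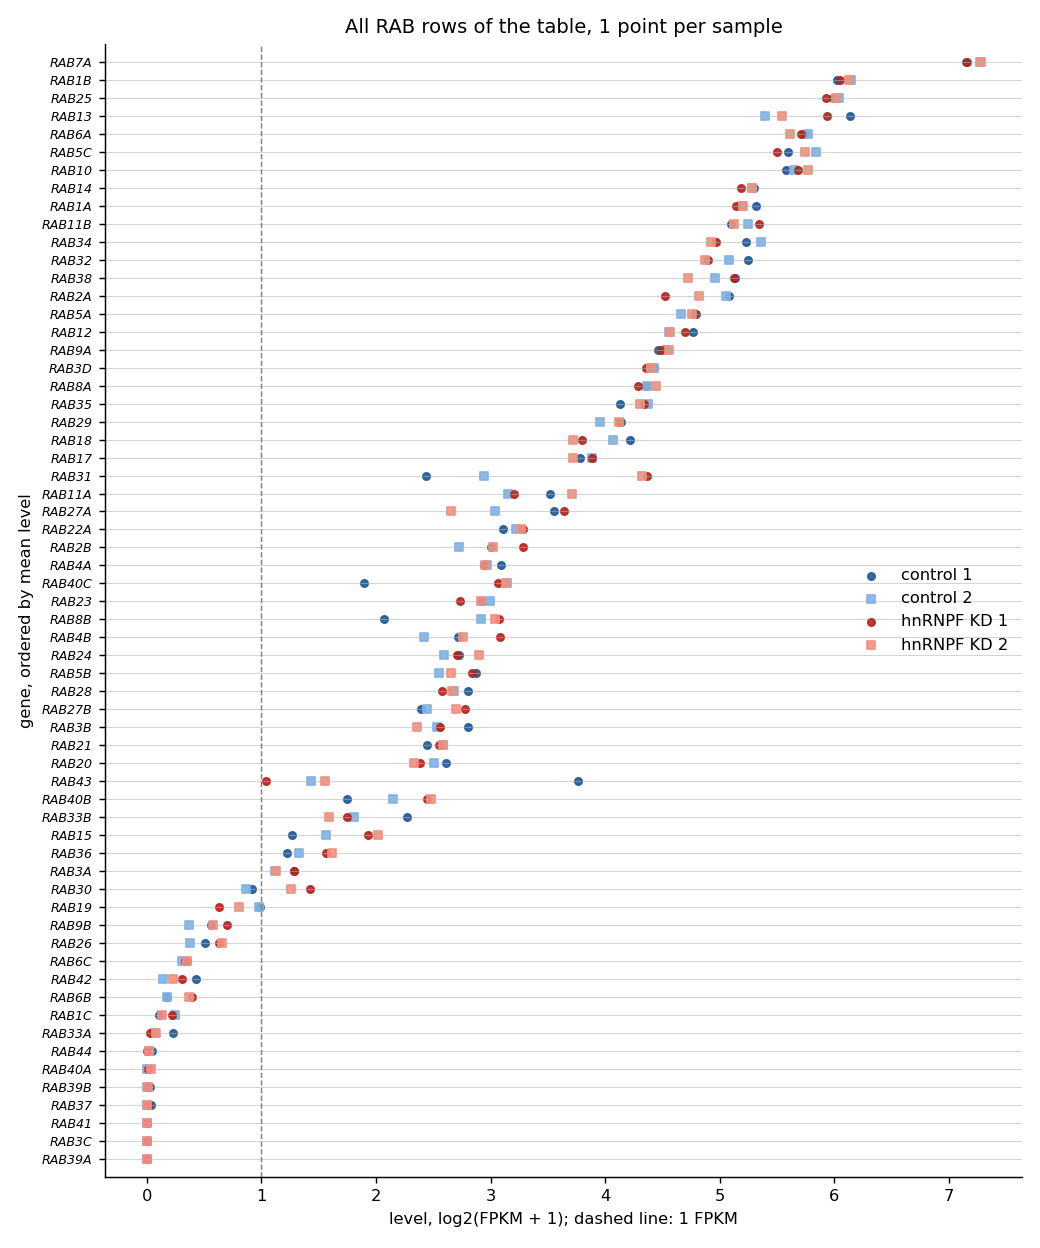
Levels of all 62 members on the log2(FPKM + 1) scale (horizontal axis), ordered by mean level, with 1 point per sample and a dashed line at 1 FPKM. For most genes the 4 points lie close together, while RAB31 has both hnRNPF KD points to the right and RAB43 has control 1 apart.

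The factors that load, activate, turn off and read RABs were listed by role, together with 6 receptors carried through endosomes. Of all these genes, 114 were tested, the 6 receptors among them. None passed an adjusted p of 0.05 in limma, and 7 (6.14%) had an unadjusted p under 0.05, against 6.08% of all tested genes. Of those 7, 2 were receptors. Among the 9 exchange factors of the RAB5 branch, GAPVD1, which activates RAB5 and RAB31, had the smallest p. It was at 15.3 and 12.0 FPKM in controls and at 9.08 and 8.02 FPKM in the hnRNPF KD samples. Both hnRNPF KD samples lay below both controls, 37.4% lower on average, at a difference of -0.61 and an adjusted p of 0.733 in limma. RIN3, another exchange factor of this branch, was at 3.15 and 2.93 FPKM and then at 4.11 and 3.67 FPKM. The list had 5 members above 0 and 4 below, with a median of 0.02.

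All 8 genes of prenylation and membrane extraction had differences above 0, against 50.2% of all tested genes, and the groups did not overlap for 4, all higher, where 17.5% of all tested genes were higher without overlap. RABGGTA, the alpha subunit of the transferase that adds the lipid anchor, was at 21.0 and 20.1 FPKM in controls and at 30.6 and 26.1 FPKM in the hnRNPF KD samples (0.44; limma, adjusted p = 0.730). GDI2, which extracts RABs bound to GDP from membranes, was at 109 and 101 FPKM and then at 123 and 134 FPKM (0.28; limma, adjusted p = 0.806). The median of the list was 0.18, beside 0.00 for all tested genes. These genes were listed with results of these samples known, and their median is a description.

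The effectors of the RAB5 branch lay above 0 in 6 of 13 cases, with a median of -0.04. The smallest p-values belonged to OCRL, a phosphoinositide phosphatase (13.9 and 14.0 FPKM in controls, 16.6 and 16.1 FPKM in the hnRNPF KD samples), and RABEP2 (6.70 and 7.02 FPKM, then 8.79 and 7.88 FPKM). Exchange factors of other RABs had 11 of 23 above 0 and a median of -0.02. The smallest p-value belonged to HPS1, a subunit of the exchange factor for RAB32 and RAB38 (21.4 and 17.7 FPKM, then 16.1 and 15.2 FPKM). That list also holds DENND1C, whose hnRNPF KD mean of 0.788 FPKM lay below the filter, so it had to be lower to be tested. GTPase-activating proteins had 23 of 33 above 0 and a median of 0.07. TBC1D4, the RAB GTPase-activating protein of insulin signalling, was at 11.8 and 10.8 FPKM and then at 9.74 and 8.62 FPKM. Effectors of other RABs had 13 of 22 above 0 and a median of 0.05, with SYTL4, an effector of RAB27, at 2.47 and 2.23 FPKM and then at 3.37 and 3.67 FPKM.

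Of 6 receptors that travel through endosomes, 4 had differences above 0 and 2 below. TFRC, the transferrin receptor and the standard cargo of recycling endosomes, was at 127 and 117 FPKM in controls and at 65.0 and 55.4 FPKM in the hnRNPF KD samples. Both hnRNPF KD samples were below both controls, 50.7% lower on average. The difference was -1.01, and the adjusted p was 0.352 in limma, so it did not pass. IGF2R, a mannose 6-phosphate receptor that shuttles between the Golgi and endosomes, was at 16.3 and 18.5 FPKM and then at 21.4 and 22.0 FPKM (0.31; limma, adjusted p = 0.817).

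**Figure D4:**
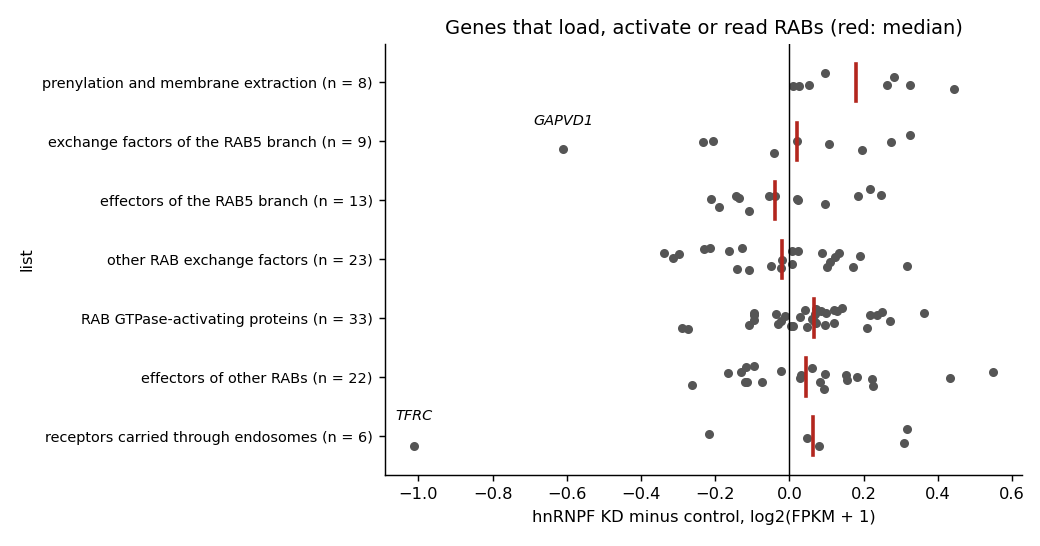
Differences between hnRNPF KD and control on the log2(FPKM + 1) scale (horizontal axis) for the tested genes of 7 lists, with 1 point per gene, spread vertically at random within its row, and red lines at the list medians. GAPVD1 at -0.61 and TFRC at -1.01 lie farthest to the left.

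Because the series concerns RNA G-quadruplexes, the transcripts of the members were searched for 4 runs of at least 3 G separated by 1 to 7 bases, on the transcript strand only. A coding transcript was found for 61 of the 62 members. The RAB31 transcript of 4055 bases held no match, and its 12.3 runs of GGG or longer per kb equal the median of the tested members. A match was present in 14 of the 47 tested members (29.8%) and in 26.0% of the 11419 tested genes with a coding transcript, whose median length is 3048 bases. Matches are shown, with the G runs in capitals, for the relatives of RAB31, the 3 most abundant members and the members with the largest differences without overlap, where these held one.
RAB21, 5′ UTR: GGGtcggcGGGGccGGGGcggtGGGGG
RAB21, 5′ UTR: GGGctcGGGcggccGGGaagcgacGGG
RAB5C, 3′ UTR: GGGGGGGcaGGGGGaGGGG
RAB1B, 3′ UTR: GGGcGGGtGGGcGGG
RAB8B, 5′ UTR: GGGGcGGGGcgtGGGGcGGGG
RAB40B, 5′ UTR: GGGcatGGGtGGGGGcgccGGG
RAB33B, 5′ UTR: GGGGctGGGtcagtcaGGGcgctGGG
RAB33B, 5′ UTR: GGGcaaGGGcGGGGcGGG
Of the 14 tested members with a match, 6 had differences above 0 and 8 below. Those above 0 were RAB8B (0.56), RAB40B (0.52), RAB27B (0.32), RAB35 (0.07), RAB21 (0.05) and RAB1B (0.00). Those below were RAB43 (-1.30, or -0.14 without control 1), RAB33B (-0.37), RAB20 (-0.20), RAB27A (-0.15), RAB23 (-0.13), RAB5C (-0.10), RAB3D (-0.05) and RAB12 (-0.03). A match describes letters in an annotated transcript and not a folded structure, and exon usage was not analysed here.

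The genes around RAB31 did not share its values. Within 1 Mb on either side, 9 other genes were tested, of which 2 had differences above 0. The range was from -0.38 to 0.14, the highest being PPP4R1, a phosphatase subunit gene (42.0 and 41.9 FPKM in controls, 47.4 and 45.3 FPKM in the hnRNPF KD samples). The lowest value, -0.38, belonged to RP11-888D10.4, whose hnRNPF KD mean of 0.809 FPKM lay below the filter, so it had to be lower to be tested. Other rows that overlap the RAB31 locus were listed at 0 in all 4 samples. RAB12, on the same chromosome arm, was at 26.2 and 22.5 FPKM and then at 24.9 and 22.6 FPKM.

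The depth estimates of the 4 libraries were alike. The commonest low product of FPKM and length among single-exon genes was taken as a single fragment. That gives about 77000000 to 85000000 fragments per library. On RAB31 it gives about 1384 and 2262 fragments in the controls against 6384 and 6547 in the hnRNPF KD samples. The table gives no counts, so these are estimates. The summed level of the RAB family was 1041 and 1024 FPKM in controls and 1017 and 1016 FPKM in the hnRNPF KD samples. The 6 markers of basal and other epithelial cells summed to between 6759 and 10253 FPKM over the samples, mostly KRT5, KRT14 and KRT17. KRT17 (0.67) and TP63 (0.37) were higher without overlap, while the groups overlapped for KRT5 (-0.14) and KRT14 (0.23). Of the markers not limited to basal cells, EPCAM (-0.38) was lower without overlap and CDH1 (0.59) overlapped. The 4 luminal markers summed to 415 to 469 FPKM, with KRT18 lower (-0.39) and KRT8 higher (0.14) without overlap. The part of these markers in the RAB values was not tested. Fibroblast markers summed to 9.86 to 13.0 FPKM, nearly all of it COL1A1, while DCN and LUM stayed at or under 0.0789 FPKM. Immune markers reached at most 1.52 FPKM, with CD3E listed at 0 in all 4 samples, and the endothelial markers CDH5 and VWF at most 0.0677 FPKM in sum.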

How the data were processed

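The authors deposited 1 FPKM value per gene and sample, per the file headers. GRCh37, Cuffdiff 2.2.1 and STAR 2.5.3a are listed, without roles, in the submitters' processing notes, and the annotation release is not given in the sources used here. Coordinates are those of the deposited table. The 13110 genes whose mean reached 1 FPKM were transformed as log2(FPKM + 1), which understates changes of low genes. The comparison used limma 3.58.1 under R 4.3.3 (empirical Bayes with an intensity trend, no covariate, two-sided, Benjamini-Hochberg over all tested genes). The fit was also run on simulated independent genes drawn from its own variances, which cannot show how it behaves on these samples. An exact permutation test of 2 against 2 samples has 0.333 as its smallest p and was not used. Depth was estimated from the commonest low product of FPKM and length among single-exon genes, taken as a single fragment. Only 29.4% to 46.7% of low products were whole multiples of it within 0.02, so a count test was not possible. Sequences are from GENCODE 29 transcripts (GRCh38), searched with Python 3.11.15 and Biopython 1.88; no coordinates were taken from that build. The members, lists and rules were chosen with earlier results of these data known. Named are RAB31, RAB22A, RAB21 and RAB5A to RAB5C, the 3 most abundant members, the 5 largest differences in each direction among tested members without overlap, the members next to the filter, and up to 2 genes with the smallest p per list. Other members are named to complete a role group or because 1 library set their value, after their values were seen.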

Additional observations from a re-analysis of the deposited data

How the results depend on the processing

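The RAB31 difference ranged from 1.40 to 1.90 over 14 alternatives. Its lower hnRNPF KD value was 2.84-fold above its higher control. Leaving out 1 sample or changing the pseudocount therefore could not turn its direction, and nothing is read from this range. No member passed an adjusted p of 0.05 in limma in any alternative that kept all 4 samples, which for RAB31 is no test. The lowest adjusted p of a named member other than RAB31 was 0.310 in limma, for RAB15 with the replicate block. Genes called over the whole table numbered 1; they were 0 with no filter, 0 with no trend, 0 with the replicate block and 2 with median-ratio scaling, and 0 to 2 when 1 sample was left out (0 without control 1 or control 2). HNRNPF, the gene called in the main fit, had an adjusted p of 0.0251 there in limma. Alternatives that kept all 4 samples gave it 0.0124 (quantile normalization) to 0.259 (no filter). Members without overlap numbered 23, and 31 to 40 when 1 sample was left out (37 without control 1, 40 without control 2), where 65.3% to 70.1% of all tested genes did not overlap either because fewer samples have to separate. With all 4 samples kept, 18 of 47 tested members did not overlap with quantile normalization, against 35.9% of all tested genes. With median-ratio scaling there were 18 of 47, against 33.8%. With no filter there were 29 of 59, against 28.5%, and with the filter at 5 FPKM 17 of 37, against 36.2%. The median difference of the members ranged from -0.019 to 0.032 when 1 sample was left out. Differences near 0 turned sign for RAB7A (-0.0085) and RAB1B (-0.016) with median-ratio scaling, and when 1 sample was left out for RAB7A (-0.049 to 0.073), RAB1B (-0.056 to 0.066), RAB21 (-0.022 to 0.12), RAB5A (-0.016 to 0.12), RAB5B (-0.13 to 0.20) and RAB5C (-0.22 to 0.026). Same-numbered samples deviated together (correlation 0.39 over all tested genes, -0.01 over the 47 members), but with 2 pairs the numbers do not show a pairing; with the replicate block 1790 genes lay under an unadjusted p of 0.05, against 797 without it. RAB15, RAB21, RAB30, RAB33B and RAB40B could not be fitted with a filter at 5 FPKM, being below it. With 2 samples a group and no counts, small differences of members near 1 FPKM cannot be resolved.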
